A study of Homo sapiens with 6 samples.

Results

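The tumour necrosis factor (TNF) superfamily ligands and receptors were compared between 2 established colorectal cancer cell lines, the highly metastatic KM12SM and the poorly metastatic SW620. Members were taken by gene symbol from the probe annotation: every probe set named TNFSF or TNFRSF followed by a number, and those of LTA, LTB, LTBR, FAS, FASLG, CD40, CD27, CD70, EDA, EDAR, EDA2R and RELT. This gave 42 of the 17687 genes named on the array, with 1 probe set per gene: 16 ligands, 24 receptors, 1 transcript that reads through TNFSF12 and TNFSF13, and 1 antisense RNA, TNFRSF14-AS1. TNF itself, CD40LG, TNFRSF1B, TNFRSF6B, TNFRSF10C and TNFRSF13C were not analysed here.

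KM12SM is a derivative of the KM12 colorectal cancer line that was selected in mice for its growth in the liver, and SW620 was established from a lymph node metastasis of another patient. Both lines were untreated and kept in the same serum-containing medium, and RNA of each was hybridised to 3 Clariom S human arrays. Each group is thus 1 cell line, so metastatic capacity, patient of origin and every other difference between the lines cannot be told apart. The replicates are called independent RNA replicates, without a statement that they came from separate cultures, and the p-values therefore cover only the variation among the 3 RNA samples of a line, part or all of which may be technical.

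TNF superfamily ligands are mostly trimeric membrane proteins that can be shed from the cell surface, and they bind cysteine-rich receptors on the same or on neighbouring cells. Some receptors with a cytoplasmic death domain, such as FAS, recruit adaptors that can activate caspases. Receptors without one bind TRAF adaptors and signal to NF-kappaB and to the JNK kinases, and some with a death domain also signal to these. Decoy receptors bind ligand without passing on a death signal. Many of the ligands were first described in lymphocytes, and several receptors, among them FAS and the TRAIL receptors, are known from the colonic epithelium and from colorectal tumours.

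All values are log2 signals after RMA (robust multi-array average), a normalisation that summarises the probes of a gene, so that a difference of 1 is a 2-fold change. They ran from 2.36 to 13.79 with array medians of 6.71 to 6.78. Differences are KM12SM minus SW620 from limma with their standard error (SE), and a probe set was called where its p, adjusted over the 21448 probe sets of the array, was under 0.05. Pearson r between arrays of the same line was 0.981 to 0.992 and was lowest for replicate 3 of each line, against 0.919 to 0.926 between lines. For each called member the difference without replicate 3 of both lines is given below. No detection call was used, and a probe set is named dim where its mean over the 6 arrays was under the 25th percentile of all means, 5.12. Fold changes of genes that were dim in 1 line are limited by the background.

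The epithelial markers EPCAM (11.64 to 11.99) and KRT8 (12.21 to 12.77) were bright on all 6 arrays. CDH1, CDH17 and LGALS4 of the same list had SW620 means of 5.55, 5.6 and 6.09, against 9.25, 10.55 and 10.16 in KM12SM. The leukocyte marker PTPRC (3.63 to 4.51) was dim on all 6, and 3 of 9 measured leukocyte markers were dim by their mean. CD79A (means 7.7 in KM12SM and 7.49 in SW620) and CSF1R (6.92 and 6.88) were not dim. Of 9 measured markers of the colorectal epithelium, 5 were higher in KM12SM and 1 was lower, with a mean log2 signal over the list of 10.25 to 10.54 in KM12SM and 8.76 to 8.91 in SW620. The leukocyte list had 1 of 9 markers higher in KM12SM, CD68, and a mean of 5.65 to 5.83 against 5.55 to 5.65. Of 7 fibroblast markers (means 5.52 to 5.66 in KM12SM and 5.62 to 6.05 in SW620) and 6 endothelial markers (5.42 to 5.62 and 5.48 to 5.75), 0 were called by limma and 1, KDR, had an unadjusted p under 0.05. The called share was 66.7% of the epithelial and 11.1% of the leukocyte markers, against 25% of all probe sets. In lists this short, 0 or 1 called marker says little. The part of the epithelial difference in the results below was not tested.

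Of the 42 members, 7 were higher and 4 were lower in KM12SM, and 31 did not pass the test. CD70, TNFRSF11A, TNFSF9, FAS, TNFRSF11B, TNFRSF21 and TNFSF15 were higher, and TNFRSF19, TNFRSF10D, FASLG and EDAR were lower. The called share of the members was 26.2%, and that of all probe sets was 25%, with 12.6% higher and 12.4% lower. The median difference of the members was 0.03, against 0.01 over all probe sets, and the median size of the difference was 0.29, against 0.26. As a family the members were therefore called about as often as probe sets in general. Of the 7 higher members, 5 differed by at least 2-fold, as did 2 of the 4 lower ones. Over all probe sets, 1197 of the 2708 higher and 1042 of the 2654 lower ones did. The 3 KM12SM signals were all above or all below the 3 SW620 signals for 17 members (40.5%), compared with 37.7% of all probe sets.

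**Figure D1:**
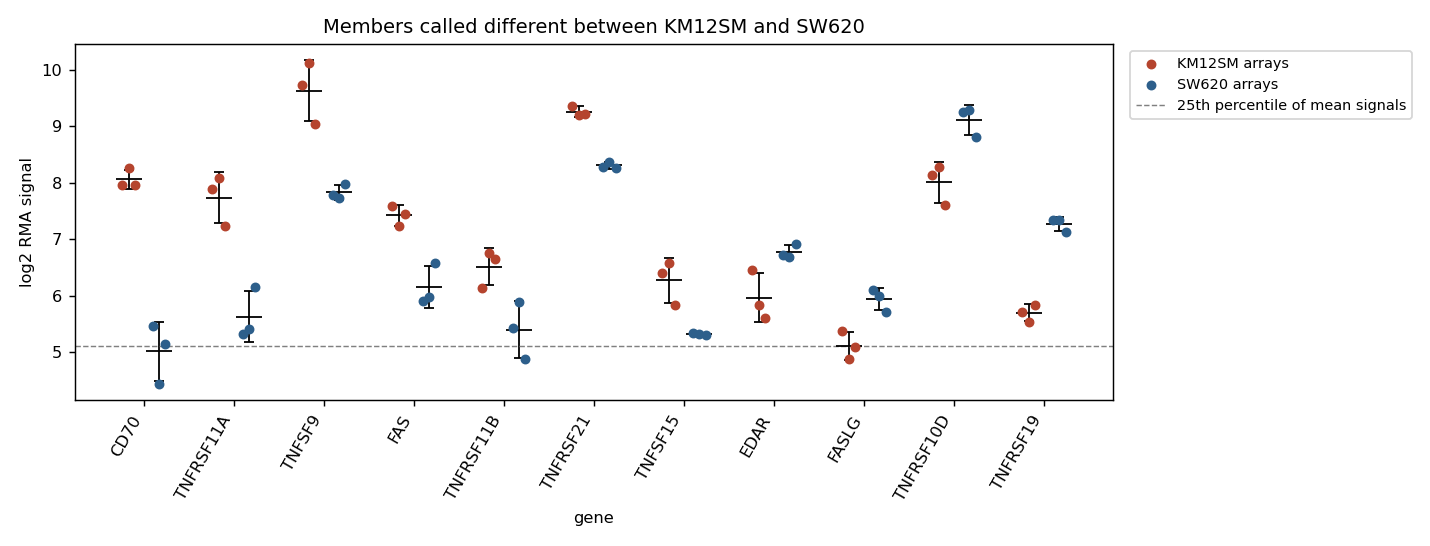
Log2 RMA signal (vertical axis) of the 11 called members on each of the 6 arrays, with KM12SM arrays in red and SW620 arrays in blue, in the order replicate 1 to 3 from left to right; horizontal bars are means and error bars are the SD of 3 arrays. The signals of the lines do not overlap for any of the 11, and CD70 lies furthest apart, between 7.96 and 8.25 in KM12SM and between 4.44 and 5.47 in SW620.

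Of the 16 ligands, 3 were higher and 1 was lower in KM12SM, and 12 did not pass. The called share was 25%, the same as that of all probe sets. The largest measured difference of all members was that of CD70, the ligand of CD27, which is normally found on activated lymphocytes and dendritic cells. CD70 had log2 signals of 7.96, 8.25 and 7.96 on the KM12SM arrays and of 5.47, 4.44 and 5.14 on the SW620 arrays. Every KM12SM array was far above every SW620 array. The SW620 mean of 5.02 was under the 25th percentile, as was 1 of its arrays, so CD70 was dim in SW620. The difference was 3.04 (SE 0.23, 95% interval 2.55 to 3.53), a measured 8.22-fold that is limited by the background in SW620, with an adjusted p = 4.97e-08 from limma.

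TNFSF9 encodes 4-1BB ligand, a costimulator of T cells. Its signals were 9.72, 10.11 and 9.04 in KM12SM and 7.79, 7.72 and 7.97 in SW620. Replicate 3 was the lowest of the KM12SM arrays and the highest of the SW620 arrays, and the groups remained apart. TNFSF9 was higher in KM12SM by 1.80 (SE 0.23), or 3.47-fold (adjusted p = 1.96e-05 from limma). The upstream sequence of TNFSF9 is shown because its difference was the largest among the ligands with a RefSeq promoter here. It covers the 250 bases before the start in GRCh38.p14, chr19:6530776-6531025, plus strand, and the capitals mark the GC box GGGCGG, of which it holds 2.
TNFSF9: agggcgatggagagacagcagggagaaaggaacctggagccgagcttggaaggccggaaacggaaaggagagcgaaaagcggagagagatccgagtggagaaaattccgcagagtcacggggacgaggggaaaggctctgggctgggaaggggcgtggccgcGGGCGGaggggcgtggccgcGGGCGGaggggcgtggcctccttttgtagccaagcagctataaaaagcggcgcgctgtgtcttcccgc

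TNFSF15, also known as TL1A, is the ligand of death receptor 3 and has been linked to inflammatory bowel disease. It had signals of 6.40, 6.58 and 5.83 in KM12SM and of 5.35, 5.33 and 5.31 in SW620. The SW620 arrays were nearly equal and lay below all KM12SM arrays, of which replicate 3 was the lowest. The difference was 0.94 (SE 0.20), or 1.92-fold, with an adjusted p = 0.00196 from limma. Of the called members with a RefSeq promoter, FAS and TNFSF15 had a match to the AP-1 letters TGANTCA, in capitals in the 250 bases before the TNFSF15 start (GRCh38.p14, chr9:114792531-114792780, minus strand).
TNFSF15: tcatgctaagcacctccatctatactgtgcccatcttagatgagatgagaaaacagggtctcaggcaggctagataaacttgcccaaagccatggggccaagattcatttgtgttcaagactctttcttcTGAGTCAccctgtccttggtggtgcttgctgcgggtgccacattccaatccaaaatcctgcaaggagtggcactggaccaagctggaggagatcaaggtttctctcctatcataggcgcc

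FASLG, the death ligand that binds FAS, was the ligand with the lower signal in KM12SM. Its signals were 5.38, 4.88 and 5.09 in KM12SM and 6.1, 6.0 and 5.72 in SW620. The groups did not overlap, but 2 of the KM12SM arrays were under the 25th percentile. FASLG was lower in KM12SM by 1.77-fold, a difference of -0.82 (SE 0.19, adjusted p = 0.00336 from limma). Its upstream sequence (GRCh38.p14, chr1:172658853-172659102, plus strand) was the 1 promoter of a called member with a match to the NF-kappaB letters GGNNTTTCC. In capitals are that match, 56 to 48 bases before the start, and a GC box.
FASLG: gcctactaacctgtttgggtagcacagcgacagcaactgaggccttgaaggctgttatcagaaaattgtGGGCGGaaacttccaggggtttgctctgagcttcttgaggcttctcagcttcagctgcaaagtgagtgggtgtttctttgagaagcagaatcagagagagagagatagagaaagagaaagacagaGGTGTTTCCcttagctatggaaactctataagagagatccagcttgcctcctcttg

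The 12 other ligands did not pass the test, with differences between -0.32 for TNFSF14 and 0.39 for TNFSF12. Of these, 6 were dim: LTA, TNFSF4, TNFSF8, TNFSF11, TNFSF13B and TNFSF18. TNFSF10, which encodes the death ligand TRAIL, had signals of 7.41, 7.88 and 7.44 in KM12SM and of 7.35, 7.56 and 6.98 in SW620. Its arrays overlapped, and the difference was 0.28 (95% interval -0.14 to 0.70, adjusted p = 0.359 from limma). TNFSF12, which encodes TWEAK, had arrays of 5.97 to 6.59 in KM12SM and 5.65 to 6.18 in SW620 (adjusted p = 0.182 from limma). LTB, a subunit of membrane lymphotoxin, TNFSF13, which encodes APRIL, and EDA, the ligand of EDAR, differed by -0.09, -0.11 and 0.15.

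Of the 7 measured receptors with a death domain, FAS and TNFRSF21 were higher in KM12SM, EDAR was lower, and 4 did not pass. The called share was 42.9% of these few genes, against 25% of all probe sets. FAS, whose engagement by FASLG starts extrinsic apoptosis, had signals of 7.59, 7.23 and 7.45 in KM12SM and of 5.91, 5.98 and 6.58 in SW620. All KM12SM arrays were above all SW620 arrays, and SW620 replicate 3 came closest to them. The difference was 1.27 (SE 0.20, 95% interval 0.84 to 1.69), or 2.41-fold (adjusted p = 0.000167 from limma). Without replicate 3 of both lines the difference was 1.46. RefSeq gave 3 starts for FAS, and the 250 bases before the most upstream of them (GRCh38.p14, chr10:88990548-88990797, plus strand) are shown with the AP-1 match, 242 to 236 bases before the start, and a GC box in capitals. The windows of the other FAS starts held no AP-1 match.
FAS: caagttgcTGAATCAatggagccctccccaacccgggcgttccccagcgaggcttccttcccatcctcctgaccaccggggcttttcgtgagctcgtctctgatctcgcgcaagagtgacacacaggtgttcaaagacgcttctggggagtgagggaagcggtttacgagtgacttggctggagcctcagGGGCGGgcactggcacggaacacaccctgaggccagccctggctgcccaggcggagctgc

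TNFRSF21, or death receptor 6, was among the most even members within each line. Its signals were 9.36, 9.19 and 9.21 in KM12SM and 8.28, 8.37 and 8.26 in SW620. The 3 arrays of a line lay close together and the lines were clearly apart. TNFRSF21 was higher in KM12SM by 0.95 (SE 0.16), or 1.93-fold, with an adjusted p = 0.000347 from limma.

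EDAR, the ectodysplasin receptor known from the development of hair, teeth and sweat glands, had signals of 6.45, 5.84 and 5.61 in KM12SM and of 6.72, 6.69 and 6.91 in SW620. KM12SM replicate 1 was close to the SW620 arrays, and replicates 2 and 3 were clearly lower. EDAR was lower in KM12SM by 1.75-fold, a difference of -0.81 (SE 0.21, adjusted p = 0.00861 from limma). This call was lost without replicate 3 of both lines, when the difference was -0.56 (adjusted p = 0.0775 from limma).

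The TRAIL death receptors TNFRSF10A and TNFRSF10B did not pass, and neither did TNFRSF1A and TNFRSF25. TNFRSF10A had arrays of 8.61 to 9.42 in KM12SM and 8.76 to 9.14 in SW620, and TNFRSF10B of 8.03 to 8.89 and 8.62 to 9.22. In both, KM12SM replicate 3 was the lowest of the 6 arrays. TNFRSF1A, the main receptor for soluble TNF, had signals of 8.38, 8.38 and 8.42 in KM12SM and of 7.93, 8.05 and 7.97 in SW620. These arrays did not overlap, but the difference of 0.41 (SE 0.16, 95% interval 0.07 to 0.75) did not pass (adjusted p = 0.077 from limma). TNFRSF25, the TNFSF15 receptor also called death receptor 3, differed by 0.03.

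Both measured decoy receptors were called, in opposite directions (2 of 2, against 25% of all probe sets). TNFRSF11B encodes osteoprotegerin, a secreted receptor that binds TNFSF11 (RANK ligand) and TRAIL. It had signals of 6.14, 6.75 and 6.65 in KM12SM and of 5.43, 5.89 and 4.88 in SW620. The highest SW620 array came close to the lowest KM12SM array, and SW620 replicate 3 was under the 25th percentile. TNFRSF11B was higher in KM12SM by 1.11 (SE 0.24, 95% interval 0.60 to 1.62), or 2.16-fold (adjusted p = 0.00238 from limma).

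TNFRSF10D, a TRAIL receptor with a truncated death domain, went the other way. Its signals were 8.14, 8.27 and 7.60 in KM12SM and 9.24, 9.28 and 8.81 in SW620. Replicate 3 was the lowest array of each line, and the lines did not overlap. The difference was -1.11 (SE 0.21), or 2.15-fold lower in KM12SM (adjusted p = 0.000737 from limma). TNFRSF10A, TNFRSF10B and TNFRSF10D are related in sequence, and whether their probes share signal was not tested.

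Among the 15 other receptors, 1 was higher, 1 was lower and 13 did not pass (13.3% called, against 25% of all probe sets). TNFRSF11A encodes RANK, the receptor of TNFSF11, best known from osteoclasts and the mammary gland. It had signals of 7.89, 8.09 and 7.23 in KM12SM and of 5.32, 5.42 and 6.15 in SW620. Replicate 3 was the lowest KM12SM array and the highest SW620 array, and the groups still lay more than 1 log2 unit apart. The difference was 2.11 (SE 0.25, 95% interval 1.58 to 2.63), or 4.31-fold, with an adjusted p = 8.22e-06 from limma. The 250 bases before the TNFRSF11A start (GRCh38.p14, chr18:62325060-62325309, plus strand) are shown as those of the higher receptor with the largest difference, and hold 4 GC boxes, in capitals.
TNFRSF11A: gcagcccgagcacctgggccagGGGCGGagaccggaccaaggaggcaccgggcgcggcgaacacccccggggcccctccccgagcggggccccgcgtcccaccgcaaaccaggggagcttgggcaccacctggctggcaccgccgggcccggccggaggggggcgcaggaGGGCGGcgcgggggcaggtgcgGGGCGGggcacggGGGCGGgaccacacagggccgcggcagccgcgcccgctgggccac

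TNFRSF19, or TROY, is known in mice as a Wnt target expressed in intestinal stem cells. Its signals were 5.71, 5.54 and 5.84 in KM12SM and 7.34, 7.34 and 7.13 in SW620. All KM12SM arrays were lower, with little spread in either line. The difference was -1.57 (SE 0.17, 95% interval -1.93 to -1.21), or 2.98-fold lower in KM12SM (adjusted p = 3.22e-06 from limma). RefSeq gave 2 starts for TNFRSF19, and the 250 bases before the downstream one (GRCh38.p14, chr13:23579110-23579359, plus strand) are shown because they hold 5 GC boxes, in capitals, the most among the upstream sequences of called members. The window of the other start held 0.
TNFRSF19: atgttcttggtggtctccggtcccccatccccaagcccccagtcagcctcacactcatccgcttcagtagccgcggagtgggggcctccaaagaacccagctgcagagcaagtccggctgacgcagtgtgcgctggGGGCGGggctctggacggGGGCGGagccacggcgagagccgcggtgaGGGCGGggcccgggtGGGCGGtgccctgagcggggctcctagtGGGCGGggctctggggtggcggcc

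The 13 other receptors of this group that did not pass had differences between -0.46 for TNFRSF18 and 0.44 for LTBR. LTBR, the lymphotoxin beta receptor, had signals of 8.90, 8.94 and 8.82 in KM12SM and of 8.37, 8.44 and 8.52 in SW620. TNFRSF18, the GITR receptor of T cells, had 7.43, 7.38 and 7.56 against 7.87, 7.79 and 8.08. Both separated the lines on all arrays, and both stood just beyond the threshold, with an adjusted p = 0.0575 and an adjusted p = 0.059 from limma. TNFRSF12A, the TWEAK receptor Fn14, had arrays of 9.49 to 10.31 in KM12SM and 10.25 to 10.40 in SW620 and differed by -0.29 (adjusted p = 0.366 from limma). CD27, CD40 and TNFRSF17, receptors of B and T lymphocytes, were dim on all 6 arrays. EDA2R, the receptor of an EDA splice form, differed by -0.44 (adjusted p = 0.159 from limma), and by -0.60 without replicate 3 of both lines (adjusted p = 0.0336 from limma). The readthrough transcript (-0.01) and TNFRSF14-AS1 (0.12) did not pass, and their probes may share sequence with the genes they overlap, which was not tested.

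**Figure D2:**
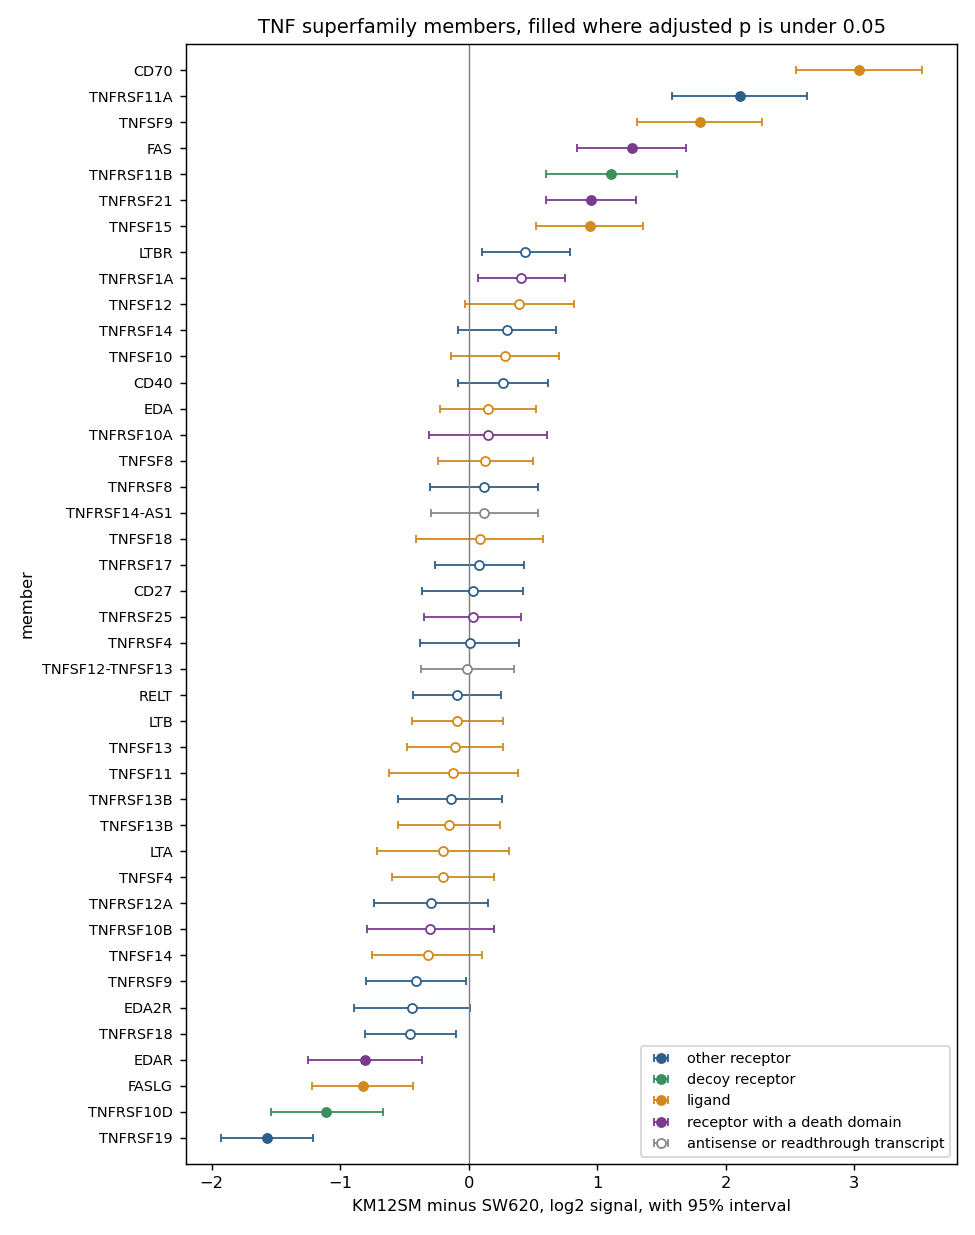
Difference of KM12SM minus SW620 in log2 signal (horizontal axis) for the 42 members, ordered by size, with the 95% interval from limma; colours mark the role and filled points the 11 called members. From CD70 (3.04) to TNFSF15 (0.94) and from TNFRSF19 (-1.57) to EDAR (-0.81) the called members lie at both ends, and the 31 others lie between -0.46 and 0.44.

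No member that was dim by its mean passed the test: of the 9, 0 were called and 0 had an unadjusted p under 0.05 in limma, and all 11 called members were among the 33 at or over the 25th percentile. That mean covers both lines, so a member high in 1 line can pass the cut through that line. CD70 did so, with a mean of 8.06 in KM12SM and 5.02 in SW620. The split is thus partly built in. Over all members, 15 of 42 had an unadjusted p under 0.05 in limma, compared with 7361 of all 21448 probe sets, a similar share. KM12SM replicate 3 had the lowest signal of its line for 14 of 42 members (33.3%), compared with 34.8% of all probe sets, and SW620 replicate 3 for 13 (31%), compared with 45.4%. SW620 replicate 3 had the highest signal of its line for 23 members (54.8%), compared with 35% of all probe sets, and KM12SM replicate 3 for 16 (38.1%), compared with 40.3%. Of the 7 higher members, KM12SM replicate 3 was the lowest of its line for 3, and SW620 replicate 3 was the lowest for 3 and the highest for 3. Of the 4 lower members, KM12SM replicate 3 was the lowest for 2 and SW620 replicate 3 for 3. Without replicate 3 of both lines, 10 of the 11 called members remained called in limma. The differences were then 3.15 for CD70, 2.62 for TNFRSF11A, 2.16 for TNFSF9, 1.46 for FAS, 1.15 for TNFSF15 and 0.95 for TNFRSF21. TNFRSF11B fell below a 2-fold change, at 0.78 (adjusted p = 0.0375 from limma). Among the lower members the difference was -1.72 for TNFRSF19, -1.05 for TNFRSF10D and -0.92 for FASLG, and EDAR was the member that lost its call.

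Ligands were next set beside their receptors. Of 35 known ligand and receptor pairs, both partners were measured for 26. Both partners were called in 1 of them, FASLG and FAS, with the ligand lower and the receptor higher in KM12SM. In 8 pairs 1 partner was called, which was the ligand in 3 and the receptor in 5, and in 17 pairs neither was. A pair in which ligand and receptor were called in the same direction was not seen (0 of 26). Over all probe sets, 12.6% were called higher and 12.4% lower, shares at which few pairs would have both partners called. The 0 therefore says little about how ligand and receptor go together, which was not tested. Pairs share members, so they are not independent of each other.

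CD70 and TNFSF9 were higher in KM12SM, while their receptors were not called. CD27 had signals of 4.60, 4.39 and 4.45 in KM12SM and of 4.79, 4.21 and 4.35 in SW620, and the groups overlapped (difference 0.03, 95% interval -0.36 to 0.42). TNFRSF9, the receptor 4-1BB, had signals of 5.28, 4.79 and 5.06 in KM12SM and of 5.31, 5.40 and 5.66 in SW620. It was slightly lower on every KM12SM array, by 0.41 on average, without passing the test (adjusted p = 0.121 from limma). The TNFSF15 receptor TNFRSF25 had 7.39, 7.33 and 7.40 against 7.29, 7.12 and 7.62.

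The reverse held around TNFSF11 and TNFSF10. TNFSF11 was dim on all 6 arrays, with signals of 3.61, 4.14 and 3.08 in KM12SM and of 4.02, 3.57 and 3.61 in SW620 (difference -0.12, 95% interval -0.62 to 0.38). Its receptor TNFRSF11A and its decoy TNFRSF11B were both higher in KM12SM. Of the 4 measured receptors of TNFSF10, the decoy TNFRSF10D was lower, the decoy TNFRSF11B was higher, and the death receptors TNFRSF10A (0.15) and TNFRSF10B (-0.30) did not pass. EDA overlapped between the lines, with signals of 6.03, 6.16 and 6.29 in KM12SM and of 6.03, 5.80 and 6.19 in SW620.

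**Figure D3:**
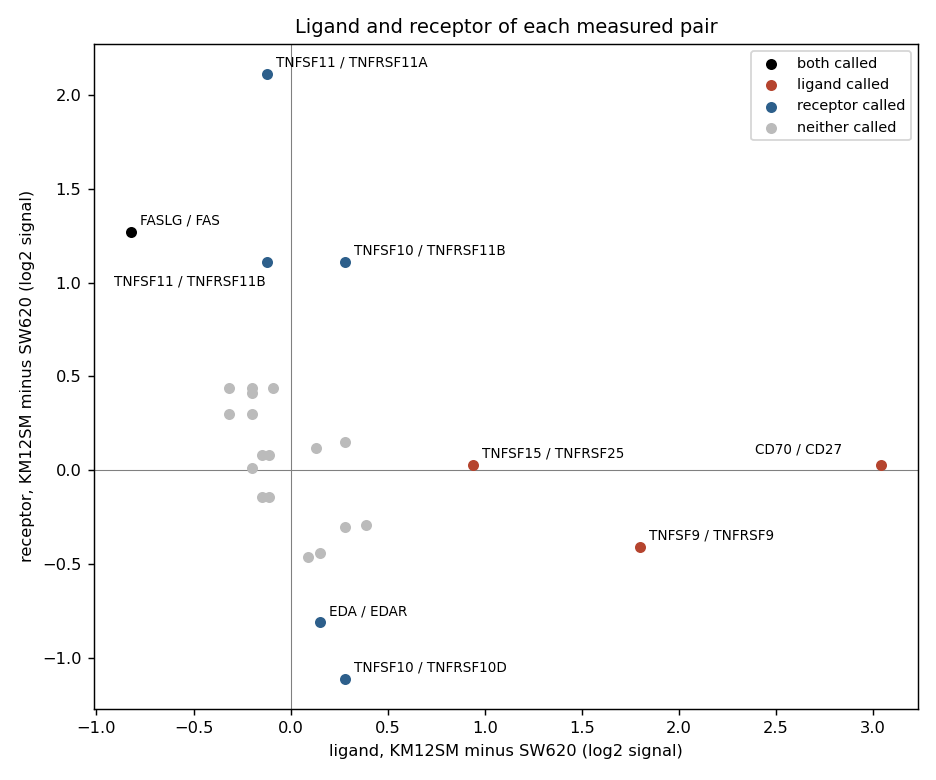
Difference of the receptor (vertical axis) against that of its ligand (horizontal axis), both as KM12SM minus SW620 in log2 signal, for the 26 pairs with both partners measured. Points of called partners lie mostly along the axes, with CD70 and CD27 furthest to the right (3.04 and 0.03) and TNFSF11 and TNFRSF11A furthest up (-0.12 and 2.11), and FASLG and FAS (-0.82 and 1.27) are the pair with both called.

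Several members lie next to each other in the genome. In the RefSeq gene order, 21 of the 41 members with a place stood within 3 coding genes of another, in 8 groups. TNFSF9, CD70 and TNFSF14 are direct neighbours on chromosome 19, and TNFSF9 (1.80) and CD70 (3.04) were higher in KM12SM, while TNFSF14 (-0.32) was not called. The nearest measured genes on either side of this group, TUBB4A (0.25) and C3 (0.38), were not called. In the group of FASLG (-0.82), its neighbours TNFSF18 (0.09) and TNFSF4 (-0.20) were not called, and in that of TNFSF15 (0.94) neither was TNFSF8 (0.13). TNFRSF10D (-1.11) lies between TNFRSF10B and TNFRSF10A, which did not pass. A member was called in 4 of the 8 groups, and TNFSF9 and CD70 were the only members of 1 group called together.

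The nearest measured genes outside the family were also read on both sides of each called member. Of 20 such genes, 7 were called (35%, against 25% of all probe sets), 5 higher and 2 lower. TNFRSF11A lies between RELCH (0.63) and ZCCHC2 (1.35), both of which were higher in KM12SM as well. TNFRSF11B lies beside SAMD12, which was higher by 3.96, and TNFRSF21 between ADGRF1 (4.14, higher) and CD2AP (-0.66, lower). TNFSF15 was higher while its neighbour TNC, which encodes the matrix protein tenascin C, was lower by 3.77. TNFRSF19, which was lower, lies beside MIPEP (0.58, higher). FAS, FASLG, EDAR and TNFRSF10D had 0 called genes on either side.

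RefSeq promoters were at hand for 28 of the 42 members and for 7 of the 11 called ones. They came as 39 windows of 300 bases, 250 before and 50 after a start, some of which overlap. On either strand, the NF-kappaB letters GGNNTTTCC were found in 6 of 39 (15.4%), compared with 6.26% of 35116 promoters of all genes. The AP-1 letters TGANTCA were found in 9 (23.1%, against 7.71%) and the GC box GGGCGG in 23 (59%, against 45%). None of the 7 windows of higher members held the NF-kappaB letters, and 6 held a GC box. Several of these windows belong to FAS and overlap, so the same GC box was counted more than once. Because the NF-kappaB letters are rare in all promoters (6.26%), their absence from 7 windows says little. A match describes the letters in the window and is not a site or a cause.

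The genes that carry the signal from the receptors were followed on 5 lists. Of 52 measured genes out of 61 listed, 12 were higher and 11 were lower in KM12SM and 29 did not pass, a called share of 44.2%, against 25% of all probe sets. KM12SM and SW620 signals did not overlap for 33 of them (63.5%, against 37.7%). The median difference was 0.10 and the median size 0.46, against 0.01 and 0.26 over all probe sets. These sets are unlike, because 5.77% of the signalling genes were dim, against 25% of all probe sets. With dim probe sets left out, among them 3 of the 52 signalling genes, 11 signalling genes were higher and 13 lower. Of the 16091 probe sets then tested, 2621 were higher and 2585 lower. The lists were also chosen with earlier results known. How much brightness or this choice adds to the called share was not tested.

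Of 15 receptor adaptors and ubiquitin ligases, 2 were higher and 4 were lower in KM12SM (40% called, against 25% of all probe sets). TRAF5, an adaptor of CD27, CD40 and the lymphotoxin beta receptor, had signals of 7.08, 7.15 and 7.16 in KM12SM and of 8.73, 8.86 and 8.59 in SW620. The lines were widely separated, and the difference was -1.60 (SE 0.16), or 3.02-fold lower in KM12SM (adjusted p = 2.01e-06 from limma). The caspase inhibitor XIAP (-1.04, adjusted p = 0.00118) and the ubiquitin ligase TRAF6 (-0.92, adjusted p = 0.00141) were also lower in limma. SHARPIN, a part of the linear ubiquitin chain assembly complex, was higher (0.82, adjusted p = 0.00263 from limma). TRAF3, which holds the alternative NF-kappaB pathway in check, differed by -0.02.

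Of 8 genes of the death-inducing complex and of necroptosis, CASP10 and MLKL were higher in KM12SM and 0 were lower. The called share was 25%, the same as that of all probe sets. CASP10, the initiator caspase related to CASP8, had signals of 5.40, 5.18 and 5.51 in KM12SM and of 3.84, 3.63 and 3.58 in SW620. All SW620 arrays were under the 25th percentile and CASP10 was dim by its mean, and the difference was 1.68 (SE 0.17, adjusted p = 1.81e-06 from limma). MLKL, which permeabilises the membrane in necroptosis, had signals of 8.31, 8.20 and 8.40 against 7.63, 7.63 and 6.99. It was higher by 0.89 (adjusted p = 0.0029 from limma) and by 0.62 without replicate 3 of both lines, and RIPK3, the kinase upstream of it, was dim on all 6 arrays (difference -0.31). CASP8 (0.46, adjusted p = 0.106) and FADD (-0.30, adjusted p = 0.235), through which FAS reaches the caspases, did not pass in limma.

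NF-kappaB and JNK activation had 5 of 15 genes higher and 2 lower (46.7% called, against 25% of all probe sets). NFKB1, the precursor of the p50 subunit, had signals of 8.71, 8.79 and 8.50 in KM12SM and of 7.52, 7.32 and 7.29 in SW620. The lines were well separated, with a difference of 1.29 (SE 0.17, adjusted p = 2.64e-05 from limma). NFKB2, the precursor of p52 (0.79), and MAP3K5, a kinase upstream of JNK (0.74), were higher as well, with an adjusted p = 0.00245 and an adjusted p = 0.0029 from limma. RELA (-0.31), RELB (0.17) and REL (0.18), the subunits with a transactivation domain, did not pass. IKBKG, the regulatory subunit of the IKK complex, was lower by 1.12 (adjusted p = 0.000201 from limma), but it has a near-identical pseudogene copy, so its value is uncertain.

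Feedback inhibitors and deubiquitinases had 5 of 8 genes called (62.5%, against 25% of all probe sets), 2 higher and 3 lower. TNFAIP3, which encodes the ubiquitin-editing enzyme A20, had signals of 6.18, 6.46 and 6.18 in KM12SM and of 7.47, 7.57 and 7.44 in SW620. It was lower in KM12SM by 1.22 (adjusted p = 4.17e-05 from limma). The deubiquitinases OTULIN (-1.01, adjusted p = 0.000402) and CYLD (-0.94, adjusted p = 0.00338) were lower too in limma. NFKBIA, which encodes the NF-kappaB inhibitor IkappaB alpha, went the other way, with 9.10, 9.45 and 8.97 against 8.18, 8.37 and 7.78. It was higher by 1.06 (adjusted p = 0.000702 from limma), so the inhibitors of this list did not share a direction.

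Of 6 genes of receptor shedding and trafficking, 1 was higher and 2 were lower (50% called, against 25% of all probe sets). ERAP1, an aminopeptidase that also promotes shedding of TNFRSF1A, was higher by 1.07 (adjusted p = 0.000443 from limma). TIMP3, an inhibitor of the sheddase ADAM17, was lower by 0.91 (adjusted p = 0.0048 from limma). ADAM17 itself had signals of 7.74, 8.06 and 7.88 in KM12SM and of 8.48, 8.78 and 8.11 in SW620. Its difference of -0.56 (adjusted p = 0.0443 from limma) was close to the threshold, and it no longer passed when replicate 1 or replicate 3 of KM12SM, or replicate 1 or replicate 2 of SW620, was left out (limma, adjusted p = 0.0855 to 0.193).

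**Figure D4:**
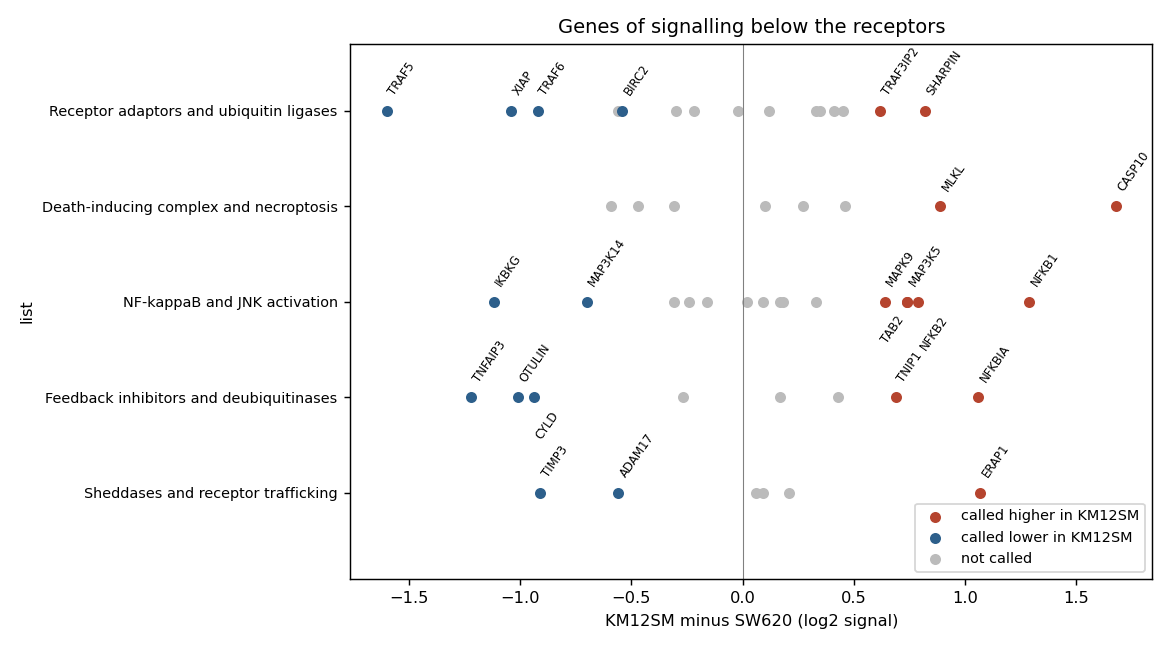
Difference of KM12SM minus SW620 in log2 signal (horizontal axis) for the 52 measured signalling genes, by list (vertical axis), with genes called higher in KM12SM in red, lower in blue and not called in grey. Called genes lie on both sides of 0 in 4 of the 5 lists, from TRAF5 (-1.60) to CASP10 (1.68), and the list of the death-inducing complex and necroptosis has called genes on the higher side alone.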

How the data were processed

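Total RNA of KM12SM and SW620 cells was profiled on 6 Clariom S human arrays, 3 per line, and each array was assigned to its line and replicate number from its sample title. The authors deposited log2 values after normalisation and probe summary by RMA in Transcriptome Analysis Console (version not given in the sources used here). RMA fits the arrays together and compresses differences of dim genes. These values were used as they stand. Arrays have no counts, and their number limits the precision (median SE 0.18 over all probe sets).

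Every one of the 21448 probe sets was fitted with the lmFit and eBayes functions of limma 3.58.1 under R 4.3.3 (two-sided, no block), with Benjamini-Hochberg adjustment over all of them and a threshold of 0.05. Intervals cover 95%. The annotation named 17709 probe sets with 1 symbol and left 3739 unnamed. No column belonged to an unmapped sample. The script was tested on simulated arrays. The members, roles, pairs and gene lists were chosen with earlier results of these data known. The text gives values for each called member, for each partner of one, and for up to 4 called genes of a signalling list by size. Other members, markers, genomic neighbours and uncalled signalling genes were named after their values were seen. Motifs were searched on both strands of RefSeq promoters (GRCh38.p14), matched by gene identifier. Genes that the annotation gave no probe set were left out.

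Alternatives were quantile normalisation, median centring, leaving out dim probe sets, array weights, a replicate block, eBayes with trend and robust set, the methods' t-test (named for gene expression in general, while limma is what the supplement gives for these arrays), leaving out each array in turn, and leaving out replicate 3 of both lines.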

Additional observations from a re-analysis of the deposited data

How the results depend on the processing

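Over the settings run, 0 of the named and family results changed direction past the threshold, and no called member lost its call when any 1 array was left out: 7 or 8 members were higher and 4 or 5 were lower. The signalling genes had 9 to 14 higher and 8 to 12 lower in those runs. The number of lower members, 4 in limma, was 9 with array weights, which also called 10 higher, and 1 with the methods' t-test after Benjamini-Hochberg adjustment. That t-test, which does not share the spread between probe sets, gave 6 higher and 4 lower signalling genes in place of 12 and 11, lost EDAR, FASLG, TNFRSF10D, TNFRSF11B and TNFSF15, and added LTBR and TNFRSF1A. With array weights LTA, TNFSF14, TNFRSF10B, EDA2R and TNFRSF18 passed as lower and TNFSF12, LTBR and TNFRSF1A as higher, and the cause was not tested. Over all probe sets, 2708 were higher and 2654 lower with limma, 5050 and 5028 with array weights, and 1499 and 1539 with the t-test. Deviations of same-numbered arrays correlated by 0.06, 0.10 and 0.15, and those of differently numbered arrays by -0.14 to 0.10. All were low and the sample titles name no pairing, so the main fit does not pair the samples. With a replicate block 7 members were higher and 5 lower, and 12 signalling genes each way. TNFRSF18, just short of the threshold, passed with that block, quantile normalisation, median centring, array weights and without dim probe sets, and LTBR passed without dim probe sets, with trend and robust, with array weights and without SW620 replicate 3. EDA2R passed without KM12SM replicate 3 (-0.67). Without replicate 3 of both lines 9 members were higher and 4 lower: EDAR was lost, and LTBR (0.51), TNFSF12 (0.70) and EDA2R (-0.60) passed. Signals near background limit what can be said of the 9 dim members.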
